A study of Mus musculus with 76 samples.

Results

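The Dlx genes encode homeodomain transcription factors that sit in the genome as linked pairs. Counted here were Dlx1 and Dlx2, one linked pair, and Dlx5 and Dlx6, the other, by the rows of the deposited count table that carry these symbols. Of the 5 transcripts listed, these 4 have a row among 35825 gene rows; Dlx6os1, a long noncoding RNA transcribed antisense to the Dlx6 locus, was not analysed here. The genes were read in 76 single cells sampled by Patch-seq, a method in which the contents of a recorded neuron are drawn into the patch pipette and sequenced.

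All cells came from the dorsal CA1 pyramidal cell layer of the hippocampus of mouse pups at postnatal day 4, and all mice carried Nkx2.1-Cre with the Ai14 tdTomato reporter. Because Cre acts in progenitors of the medial ganglionic eminence (MGE), the red label marks the origin of a cell and not what it expresses at sampling. Mutant (Mut) pups carried gephyrin S268/270A, and wild-type (WT) pups carried unaltered gephyrin (GPHN), the scaffold protein of inhibitory synapses. Whether the mutant pups carried 1 or both copies of the allele is not given in the sources used here. The authors kept 67 cells, of which 62 have no contamination mark: 34 Mut cells (19 from females and 15 from males) and 28 WT cells (9 from females and 19 from males). The kept unmarked cells held 2946456 to 12070780 counts (median 6353179). No animal, litter or batch is named, so cells of 1 pup may stand together within a group and cells were not treated as replicates. Lhx6, a transcription factor of MGE interneurons, was at 10 CPM (counts scaled to a common total per cell) or more in 57 of the 62 cells, and Gad1, which makes the GABA-synthesising enzyme GAD67, in 58. Most cells thus held the defining markers of their labelled type. Neurod6, a gene of pyramidal neurons, also reached 10 CPM in 31 of the 62.

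In the embryonic ventral forebrain, Dlx1 and Dlx2 are switched on in dividing progenitors and drive them towards a GABAergic fate, in part by activating Gad genes and the linked pair Dlx5 and Dlx6. Dlx5 and Dlx6 act later in the same cascade, in postmitotic and migrating cells. In each pair the genes are convergently transcribed and share enhancers in the stretch between them. Mice without Dlx1 lose part of their hippocampal and cortical interneurons in the weeks after birth.

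In the GENCODE M21 annotation of build GRCm38, Dlx1 (ENSMUSG00000041911.3) lies at chr2:71528113-71533981 on the plus strand. Dlx2 (ENSMUSG00000023391.8) lies at chr2:71543408-71546754 on the minus strand, with 9426 bases between the 2 genes. Dlx6 (ENSMUSG00000029754.13) lies at chr6:6863334-6868568 on the plus strand, and Dlx5 (ENSMUSG00000029755.10) follows 9236 bases on, at chr6:6877805-6882085 on the minus strand. All 4 are protein-coding genes. Their coding sequences are most alike in the homeobox, the stretch that encodes the DNA-binding homeodomain. Compared between the 4 genes were in-frame windows of 180 coding bases, chosen for the highest summed identity of the other genes to Dlx2. Each window holds a homeobox motif, but its bounds need not be those of the homeobox, and identity is by this choice a highest value. Capitals mark bases that are the same in all 4 genes, and each sequence is read on the coding strand of a GENCODE M21 transcript.
Dlx1: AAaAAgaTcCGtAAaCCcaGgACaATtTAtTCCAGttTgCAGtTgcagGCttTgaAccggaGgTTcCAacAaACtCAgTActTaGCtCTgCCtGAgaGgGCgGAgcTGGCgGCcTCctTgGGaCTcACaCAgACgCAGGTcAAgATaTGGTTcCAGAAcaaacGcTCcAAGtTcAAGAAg
Dlx2: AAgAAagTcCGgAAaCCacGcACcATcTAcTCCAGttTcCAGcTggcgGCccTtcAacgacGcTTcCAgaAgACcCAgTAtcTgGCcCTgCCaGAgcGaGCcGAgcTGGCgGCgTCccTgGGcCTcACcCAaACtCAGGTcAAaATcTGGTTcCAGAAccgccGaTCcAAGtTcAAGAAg
Dlx5: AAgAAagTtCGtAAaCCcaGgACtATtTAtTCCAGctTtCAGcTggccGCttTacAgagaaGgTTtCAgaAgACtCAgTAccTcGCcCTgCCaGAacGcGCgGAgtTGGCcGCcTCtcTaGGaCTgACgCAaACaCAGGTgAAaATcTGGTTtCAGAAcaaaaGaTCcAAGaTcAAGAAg
Dlx6: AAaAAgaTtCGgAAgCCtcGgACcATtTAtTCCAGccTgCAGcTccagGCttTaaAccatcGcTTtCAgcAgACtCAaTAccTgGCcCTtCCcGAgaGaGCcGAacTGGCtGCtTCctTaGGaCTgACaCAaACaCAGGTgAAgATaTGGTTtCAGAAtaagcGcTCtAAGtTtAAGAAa
Of the 180 positions, 108 (60%) hold the same base in all 4 genes. The linked neighbours are not the closest relatives in sequence. Dlx1 and Dlx6 share 140 bases (77.8%) and 59 of 60 encoded residues, and Dlx2 and Dlx5 share 139 bases (77.2%) and 58 residues. Dlx1 and Dlx2 share 134 bases (74.4%) and 54 residues, and Dlx5 and Dlx6 share 133 bases (73.9%) and 53 residues. The longest identical run between any 2 of the windows is 15 bases, for Dlx1 and Dlx2.

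Counts of the 4 genes can thus be told apart even in the homeobox windows by runs of 31 bases. That run length is often used to assign reads by exact matching. Over whole transcripts, 94.2% of the 31-base runs of Dlx1, 99.9% of those of Dlx2, 100% of those of Dlx5 and 90.1% of those of Dlx6 occur in no other annotated gene on either strand. Among the 321 runs that Dlx1 shares, 308 are shared with its antisense transcript Dlx1as, with which it has 335 exon bases in common. Of the 225 runs that Dlx6 shares, 48 are shared with the annotated transcript Dlx6os2. Dlx1 and Dlx6 have 5 runs in common, although their longest identical run in the homeobox windows is 11 bases. Dlx1 shares a run with 2759 other annotated genes and Dlx6 with 3810, against 1 for Dlx2 and 0 for Dlx5. Expected counts of Dlx6 were fractional in many cells, such as 487.863 in WT female cell 1. How far reads of other genes entered the Dlx6 counts was not tested. Whether the authors' counting used strand is not given in the sources used here, so reads of Dlx1 and Dlx1as cannot be told apart over those bases. Dlx6 and Dlx6os1 share 0 exon bases in the annotation, and so do Dlx5 and Dlx6os1.

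Dlx1, Dlx2 and Dlx5 were either well above or well below 10 CPM in nearly every cell, and cells at or above that limit for a gene are said here to carry its transcript. Dlx1 was carried by 43 of 62 cells (69.4%, exact binomial 95% interval 56.3 to 80.4%) and Dlx2 by 38 (61.3%, 48.1 to 73.4%). Dlx5 was carried by 24 cells (38.7%, 26.6 to 51.9%) and Dlx6 by 8 (12.9%, 5.74 to 23.9%). All intervals cover counting error only, since cells of 1 pup and PCR copies of 1 molecule are not independent.

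Cells near the limit were few for Dlx1, Dlx2 and Dlx5. For Dlx1 the highest cell below the limit had 7.92 CPM and the lowest above it 30.4 CPM. For Dlx2 these values were 5.98 and 11.2 CPM, and for Dlx5 1.30 and 18.6 CPM. For Dlx6 they were 6.66 and 12.7 CPM, and 7 of its cells lay between 5 and 20 CPM. At a limit of 1 CPM the carrying cells would number 62 for Dlx1, 51 for Dlx2, 28 for Dlx5 and 25 for Dlx6. At 50 CPM they would number 38, 35, 17 and 2 in the same order. The count for Dlx6 moved by the largest factor of the 4 at both limits.

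Most cells below the limit still had reads of a gene. Dlx1 had reads in all 62 cells, and its 19 cells below 10 CPM had a median of 2.89 CPM. The median below the limit was 1.04 CPM for Dlx2 (24 cells), 0.42 CPM for Dlx5 (38 cells) and 0.46 CPM for Dlx6 (54 cells). Cells without a read numbered 0 for Dlx1, 1 for Dlx2, 4 for Dlx5 and 11 for Dlx6. No cell labelled as a type that should lack these genes was used here. This low level thus has no separate background value and is not read as expression. It held 0.40% of all Dlx1 reads, 0.41% of Dlx2 reads and 0.60% of Dlx5 reads, but 17.6% of Dlx6 reads. Among carrying cells the median was 206 CPM for Dlx1, 202 CPM for Dlx2, 80.6 CPM for Dlx5 and 43.1 CPM for Dlx6.

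**Figure D1:**
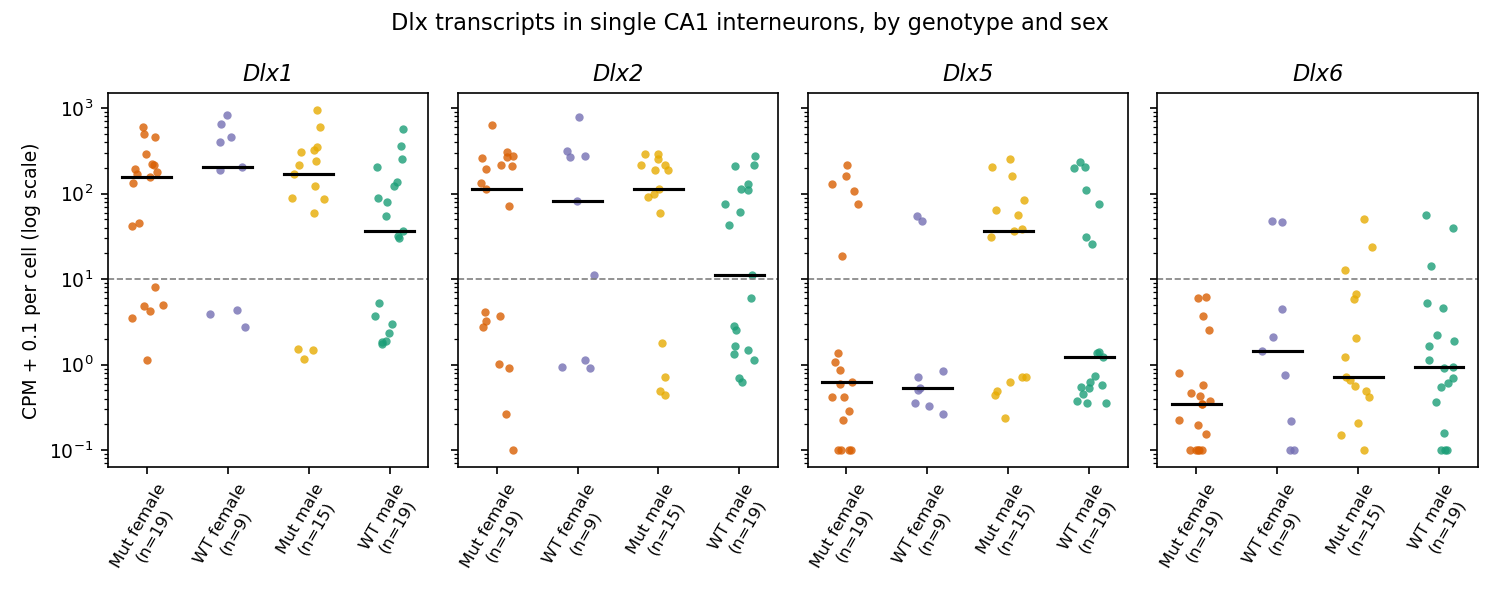
Level of Dlx1, Dlx2, Dlx5 and Dlx6 in each of the 62 kept unmarked cells, as CPM plus 0.1 on a log axis, with 1 point per cell, a black bar at the median of each group and a dashed line at 10 CPM. Points of Dlx1, Dlx2 and Dlx5 fall into an upper and a lower cloud, and no Mut female cell reaches the line for Dlx6.

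Set on the length-scaled TPM, which allows genes to be compared, the order of the medians over 62 cells was Dlx1, Dlx2, Dlx5, Dlx6. Dlx1 had a median of 81.4 TPM (0.639 to 833), Dlx2 41.9 TPM (0 to 445), Dlx5 0.794 TPM (0 to 261) and Dlx6 0.387 TPM (0 to 200). The ranges of neighbours in this order overlapped almost wholly. The order of the medians follows the number of carrying cells, and the highest single cells differed far less than the medians did.

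Dlx1, required in mice for the survival of some interneurons, spanned 1.02 to 609 CPM in Mut female cells (median 155 CPM) and 1.07 to 939 CPM in Mut male cells (median 170 CPM). In WT female cells it spanned 2.68 to 821 CPM (median 207 CPM) and in WT male cells 1.67 to 565 CPM (median 36.6 CPM). Each group had cells in both clouds and the ranges overlapped throughout. The WT male median was the lowest of the 4. Dlx1 was carried by 25 of 34 Mut cells (73.5%, exact 95% interval 55.6 to 87.1%) and by 18 of 28 WT cells (64.3%, 44.1 to 81.4%). By sex, the carrying cells were 13 of 19 in Mut females, 6 of 9 in WT females, 12 of 15 in Mut males and 12 of 19 in WT males.

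Dlx2, which in embryonic mouse progenitors binds many of the same targets as Dlx1, spanned 0 to 636 CPM in Mut female cells (median 113 CPM) and 0.338 to 295 CPM in Mut male cells (median 114 CPM). In WT female cells it spanned 0.825 to 795 CPM (median 82.2 CPM) and in WT male cells 0.525 to 273 CPM (median 11.2 CPM). The groups again overlapped, with the WT male median the lowest. The transcript was carried by 22 of 34 Mut cells (64.7%, 46.5 to 80.3%) and 16 of 28 WT cells (57.1%, 37.2 to 75.5%). By sex, the carrying cells were 11 of 19 in Mut females, 6 of 9 in WT females, 11 of 15 in Mut males and 10 of 19 in WT males.

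Dlx5, the first of the downstream pair, was a minority transcript in 3 of the 4 groups. It spanned 0 to 216 CPM in Mut female cells (median 0.526 CPM) and 0.136 to 254 CPM in Mut male cells (median 36.2 CPM). In WT female cells it spanned 0.167 to 54.0 CPM (median 0.433 CPM) and in WT male cells 0.253 to 235 CPM (median 1.12 CPM). Mut males were the 1 group whose median lay above 10 CPM, with 9 of 15 cells carrying Dlx5 (60%, 32.3 to 83.7%). The share was 6 of 19 in Mut females (31.6%, 12.6 to 56.6%), 2 of 9 in WT females (22.2%, 2.81 to 60%) and 7 of 19 in WT males (36.8%, 16.3 to 61.6%). Over both sexes it was carried by 15 of 34 Mut cells (44.1%, 27.2 to 62.1%) and 9 of 28 WT cells (32.1%, 15.9 to 52.4%).

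Dlx6, its partner, was the scarcest of the 4. It spanned 0 to 6.13 CPM in Mut female cells (median 0.248 CPM) and 0 to 50.9 CPM in Mut male cells (median 0.615 CPM). In WT female cells it spanned 0 to 48.4 CPM (median 1.35 CPM) and in WT male cells 0 to 56.0 CPM (median 0.845 CPM). No Mut female cell carried it, and 0 of 19 cells, taken as at most 3, allows a share of up to 15.8%. The 8 carrying cells were 3 of 15 Mut males, 2 of 9 WT females and 3 of 19 WT males, which gives 3 of 34 Mut cells (8.82%, 1.86 to 23.7%) and 5 of 28 WT cells (17.9%, 6.06 to 36.9%). In the Mut males the carrying cells had 12.7, 23.4 and 50.9 CPM, in the WT females 47.1 and 48.4 CPM, and in the WT males 14.1, 39.1 and 56.0 CPM. Of the remaining members of the family, Dlx3 had no read in 61 of 62 cells and 1.52 CPM in the other, a WT male cell. Dlx4 had no read in any, and 0 of 62 cells, on the same footing, allows a share of cells with a read of up to 4.84%. Both are known mainly from craniofacial, skin and placental development.

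The linked pair Dlx1 and Dlx2 was often carried together. Both were at 10 CPM or more in 31 of 62 cells, Dlx1 alone of the pair in 12, Dlx2 alone in 7 and neither in 12, while at a limit of 1 CPM both would be carried by 51 cells. Among the 43 Dlx1 cells 72.1% carried Dlx2, against 36.8% of the 19 cells without Dlx1. Among the 38 Dlx2 cells 81.6% carried Dlx1, against 50% of the 24 cells without Dlx2. Sharing of this kind was seen in each group. Both genes were carried by 9 Mut female, 5 WT female, 10 Mut male and 7 WT male cells, while Dlx1 without Dlx2 was found in 4, 1, 2 and 5 cells of these groups in the same order. By genotype, both were carried by 19 of 34 Mut cells and 12 of 28 WT cells. As a description over 62 cells that share their library chemistry and differ in depth, Spearman's rho between the 2 genes was 0.40. Within groups it was 0.08 in Mut females (19 cells), 0.50 in WT females (9), 0.56 in Mut males (15) and 0.33 in WT males (19).

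Having both transcripts did not mean having them in a set ratio. In the 31 double-carrying cells the log2 ratio of Dlx1 to Dlx2 on the TPM scale ran between -1.93 and 4.49, with a median of 0.43. Dlx1 was the higher of the 2 per length in 22 of the 31 cells. Several cells had much of one gene and hardly any of the other. Mut female cell 18 had 636 CPM of Dlx2 beside 4.19 CPM of Dlx1, and WT female cell 8 had 821 CPM of Dlx1, the highest value among WT cells, without carrying Dlx2. Cell numbers only name cells within their own group.

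Dlx5 and Dlx6 were seldom carried together. Both were carried by 5 of 62 cells, Dlx5 alone of the pair by 19, Dlx6 alone by 3 and neither by 35. Among the 24 Dlx5 cells 20.8% carried Dlx6, against 7.89% of the 38 others, and among the 8 Dlx6 cells 62.5% carried Dlx5, against 35.2% of the 54 others. Of the 5 cells, 2 were Mut male, 1 was WT female and 2 were WT male, and Spearman's rho over the 62 cells was 0.10. In these 5 cells Dlx5 was the higher per length in 4, and the log2 TPM ratio of Dlx5 to Dlx6 lay between -0.06 and 2.61. The 3 cells with Dlx6 alone of the pair, Mut male cell 2, WT female cell 4 and WT male cell 10, had 12.7, 48.4 and 39.1 CPM of Dlx6, with Dlx5 under 1 CPM in each. Low values of Dlx6 limit this comparison, since at 1 CPM the double-carrying cells would number 15 and at 50 CPM 2.

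**Figure D2:**
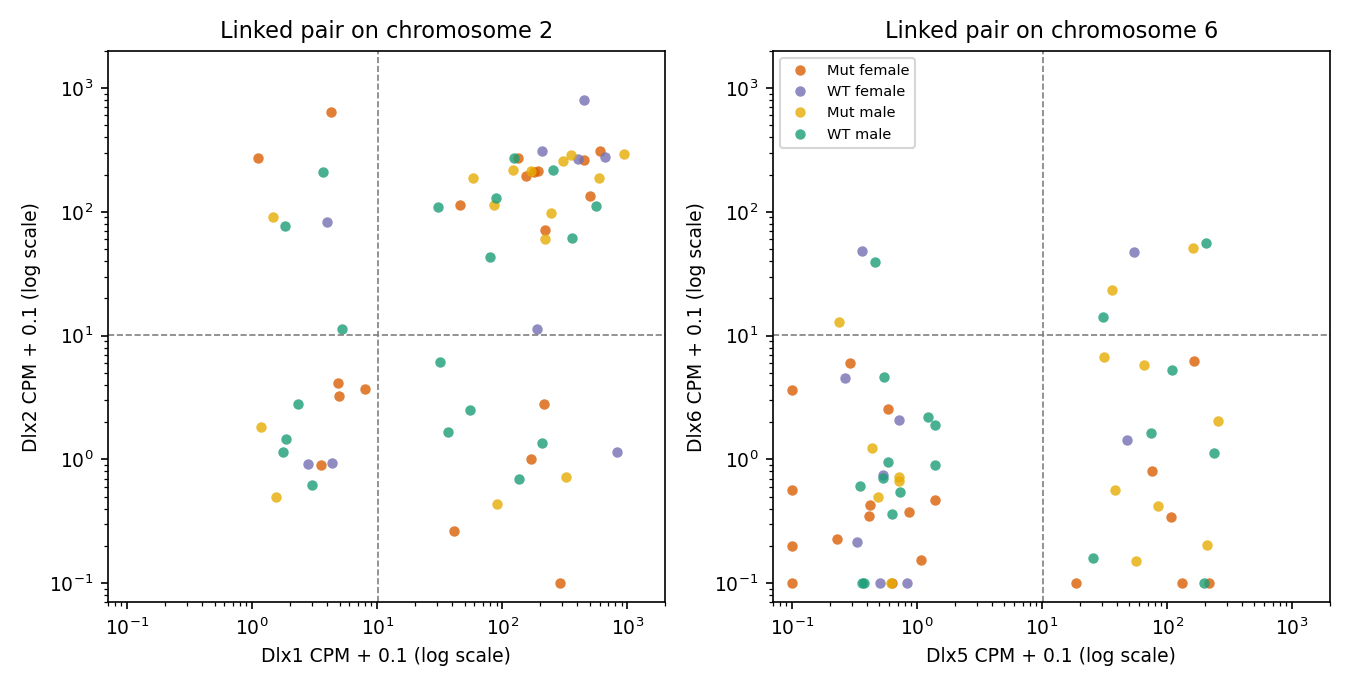
Each of the 62 cells by its CPM plus 0.1 of Dlx1 and Dlx2 (left) and of Dlx5 and Dlx6 (right), on log axes, with dashed lines at 10 CPM and colours for genotype and sex. On the left 31 cells lie above both lines, and on the right 5 do.

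Genes on different chromosomes served as a comparison for the linked pairs. Dlx1 and Dlx5 were carried together by 20 cells, 83.3% of the Dlx5 cells against 60.5% of the cells without Dlx5, with rho 0.09. Dlx2 and Dlx5 were carried together by 18 cells, 75.0% of the Dlx5 cells. Of the 8 Dlx6 cells, 7 carried Dlx1 and 5 carried Dlx2, with rho 0.04 and -0.02. Of the 6 pairs, Dlx1 with Dlx2 had the highest rho over the 62 cells, and the differences between pairs were not tested. Within Mut females that pair had 0.08, below Dlx1 with Dlx5 (0.13) and Dlx1 with Dlx6 (0.20). It was the highest pair in the other groups, though in WT males it had 0.333 against 0.325 for Dlx5 with Dlx6. In pairs with Dlx5 or Dlx6, rho rests mostly on values of that gene below 10 CPM.

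The most common combination was Dlx1, Dlx2 and Dlx5 together, in 14 cells. Dlx1 with Dlx2 alone followed in 12 cells, and 9 cells carried none of the 4. Dlx1 was the only one carried in 8 cells, Dlx2 in 6 and Dlx5 in 2, while Dlx6 was the only one carried in 0. Most Dlx5 cells thus also carried both Dlx1 and Dlx2, which 31 of all 62 cells carried together, and the difference was not tested. All 4 genes were carried by 3 cells, 1 each among the Mut males (cell 12), the WT females (cell 1) and the WT males (cell 3). Mut male cell 12 had 939 CPM of Dlx1, 295 CPM of Dlx2, 161 CPM of Dlx5 and 50.9 CPM of Dlx6. For Dlx1 and Dlx2 these were the highest values among Mut male cells.

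**Figure D3:**
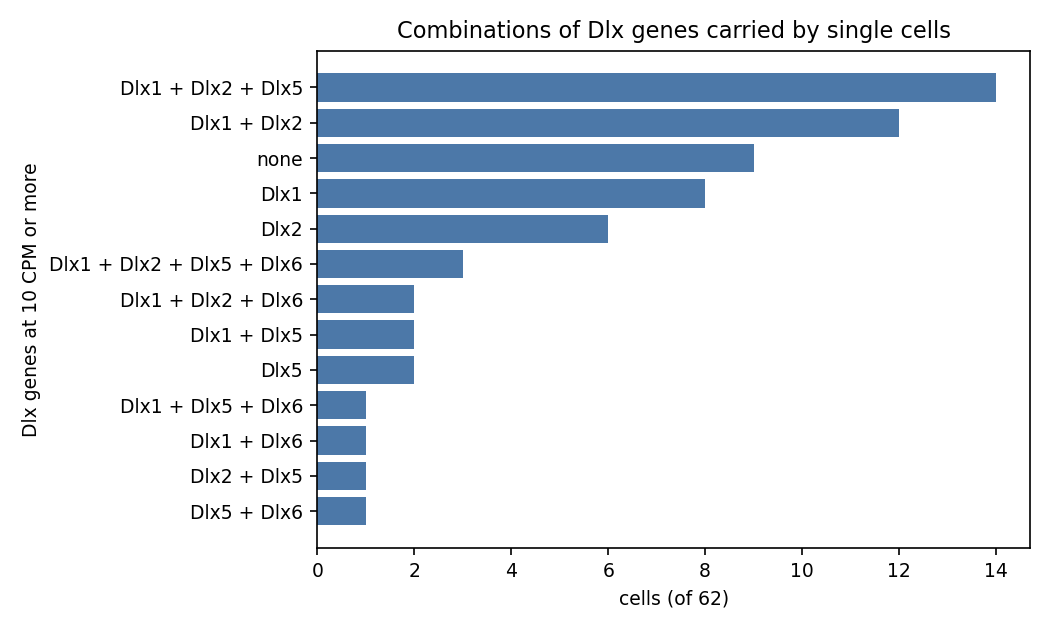
Number of the 62 cells with each combination of Dlx1, Dlx2, Dlx5 and Dlx6 at 10 CPM or more. The bar for Dlx1, Dlx2 and Dlx5 is the longest at 14 cells, and 9 cells carry none.

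The number of the 4 genes carried by a cell overlapped widely between the genotypes. Among Mut cells 4 carried none, 8 carried 1, 10 carried 2, 11 carried 3 and 1 carried 4. Among WT cells 5 carried none, 8 carried 1, 7 carried 2, 6 carried 3 and 2 carried 4. The Mut males stood highest in this count, with 8 of 15 cells carrying 3 genes, and no Mut female cell carried 4.

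Most cells that carried a Dlx gene also carried Lhx6, Gad1 and Sp9, as did most of the 62 cells in all. Lhx6 was carried by 57 of the 62, Gad1 by 58, Gad2 by 48 and Sp9 by 41. Among the 43 Dlx1 cells 41 carried Lhx6, 43 Gad1, 37 Gad2 and 33 Sp9, a zinc finger factor of the same lineage. Among the 38 Dlx2 cells 35 carried Lhx6, 37 Gad1 and 31 Sp9. Among the 24 Dlx5 cells 23 carried Lhx6, 23 Gad1 and 19 Sp9, and among the 8 Dlx6 cells 7 carried Lhx6, 7 Gad1 and 6 Sp9. Nkx2-1, the MGE factor whose promoter drives the Cre and which cortical interneurons of the mouse turn off as they migrate, was carried by 11 cells in all. Of these 11, 10 carried Dlx1, 10 Dlx2, 5 Dlx5 and 1 Dlx6. Npy, a neuropeptide gene of many hippocampal interneurons, was carried by 39 of the 43 Dlx1 cells, and Sst, a marker of somatostatin cells, by 12 of them, against 54 and 21 of all 62 cells. Slc32a1, the vesicular GABA transporter, and Sox6, an MGE factor, were less common. Slc32a1 was carried by 23 of the 62 cells and by 15 of the 43 Dlx1 cells, and Sox6 by 25 of the 62 and by 18 of the 43.

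The 9 cells with no Dlx gene all carried Lhx6, between 16.1 and 1031 CPM, and held other interneuron markers in part. Of the 9, 7 carried Gad1, 4 Gad2, 3 Sp9 and 2 Slc32a1, against 51, 44, 38 and 21 of the 53 cells with a Dlx gene. Neurod6 was carried by 3 of the 9 and by 28 of the 53. WT male cell 9 had 16.1 CPM of Lhx6 beside 87.4 CPM of Neurod6, and WT male cell 16 had 7.10 CPM of Gad1 and 2.59 CPM of Gad2. Of these 9, 3 were Mut female, 1 was Mut male, 2 were WT female and 3 were WT male. Nkx2-1 was carried by 0 of the 9, which with so few cells allows a share of up to 33.3%. Conversely the 5 cells without Lhx6 at 10 CPM each carried some Dlx gene. Mut female cell 2 had 169 CPM of Dlx1, and Mut female cell 18 had 636 CPM of Dlx2. Mut male cell 3 had 36.2 CPM of Dlx5 and 23.4 CPM of Dlx6. WT female cell 7 had 454 CPM of Dlx1 and 795 CPM of Dlx2, and WT male cell 12 had 76.3 CPM of Dlx2.

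Markers of other cells were present in part of the cells and stand beside these counts. The 10 astrocyte and radial glia markers summed to a median of 484 CPM in Mut females (highest 9233), 238 CPM in WT females (highest 10525), 170 CPM in Mut males (highest 7888) and 892 CPM in WT males (highest 9450). The 11 microglial markers summed to a median of 12.3, 9.87, 16.3 and 45.2 CPM in the same order of groups, with a highest sum of 7412 CPM in a Mut female cell. None of either list was at 0 in all cells of a group. The 12 pyramidal neuron markers summed to a median of 149 CPM in Mut females, 277 CPM in WT females, 490 CPM in Mut males and 448 CPM in WT males. The cells highest in astrocyte markers include 3 of the 5 without Lhx6, namely Mut female cells 2 and 18 and WT female cell 7. Without the 9 cells highest in microglial or astrocyte markers, Dlx1 was carried by 38 of the remaining 53 cells, Dlx2 by 34, Dlx5 by 22 and Dlx6 by 8. Dlx1 and Dlx2 were then carried together by 29 cells, and Dlx5 and Dlx6 by 5.

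As a description over the 62 cells, Dlx1 and Dlx2 levels went with the summed GABA genes (rho 0.46 and 0.47) and the summed MGE genes (rho 0.41 and 0.37). Dlx5 had rho 0.16 and -0.09 with the same sums, and Dlx6 -0.08 and 0.09. The largest value for Dlx5 was with the summed markers of interneurons from the caudal ganglionic eminence (rho 0.35), with which Dlx1 had -0.04, Dlx2 -0.02 and Dlx6 0.11. Among single genes of that list, Dlx5 had rho -0.09 with Prox1 and 0.14 with Nr2f2. Cnr1 and Nr2f1 had the highest means of the list, at 56.9 and 53.4 CPM over the 62 cells. The remaining genes of the list were not compared singly with Dlx5. With the oligodendrocyte markers rho was -0.38 for Dlx1, -0.28 for Dlx2, -0.24 for Dlx5 and 0.05 for Dlx6. With the total counts of a cell rho was 0.21 for Dlx1, 0.27 for Dlx2, 0.21 for Dlx5 and -0.16 for Dlx6. With the astrocyte markers it was -0.30, -0.12, -0.08 and -0.19 in the same order, and with the pyramidal markers -0.24, -0.28, -0.04 and 0.15. All of these values share the library of a cell, and the part of depth and of other cells' RNA in them was not tested. Those of Dlx5 and Dlx6 rest mostly on levels below 10 CPM, found in 38 and 54 of the 62 cells.

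The effect of the gephyrin mutation was asked with counts summed over the cells of a genotype and sex, 1 library each. None of the 4 Dlx genes changed by edgeR's quasi-likelihood test with sex as a second term, and no gene in the table did (0 of 16435 tested, 0%, at a Benjamini-Hochberg adjusted p under 0.05). At an unadjusted p under 0.05 there were 575 genes (3.5%) by this test, 273 higher in Mut (1.66%) and 302 lower (1.84%), and 0 of the 4 Dlx genes in either direction. DESeq2 on the same sums called 666 genes (4.05%) at an adjusted p under 0.05, and 0 of the 4 Dlx genes, whose adjusted p-values by that tool were 0.9997 for Dlx1 and Dlx2, 0.942 for Dlx5 and 0.721 for Dlx6. The fit has 1 residual degree of freedom and a biological coefficient of variation of 0.958, which limits what it can call.

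The log2 fold change of Mut over WT was 0.24 (SE 0.76, p = 0.77) for Dlx1 and 0.21 (SE 0.66, p = 0.766) for Dlx2 by edgeR. For Dlx5 it was 0.74 (SE 0.80, p = 0.403) and for Dlx6 -1.69 (SE 2.33, p = 0.505) by edgeR, with an adjusted p of 1 for each of the 4. Each of the 4 changes was smaller than its own standard error. The median over all 16435 genes was -0.000417 on the same scale.

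Within a sex the sums moved apart, with no test possible on 1 sum per group. In females Dlx1 stood at 180 CPM in Mut (178 to 183, exact Poisson 95% interval) and 372 CPM in WT (367 to 377), a log2 ratio of -1.04. The male sums were 266 CPM in Mut (263 to 269) and 92.8 CPM in WT (91.2 to 94.5), a log2 ratio of 1.51. Dlx2 did likewise. In females it had 139 CPM in Mut (137 to 141) and 235 CPM in WT (231 to 239), a log2 ratio of -0.75, and in males 144 CPM in Mut (141 to 146) and 63.7 CPM in WT (62.3 to 65.1), a log2 ratio of 1.16. These CPM are scaled by TMM, and the intervals cover counting error only.

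The female Dlx2 ratio rests on 1 cell. WT female cell 7, the astrocyte-marker-rich cell without Lhx6, holds 47.6% of the Dlx2 reads of WT females, and without it the ratio is 0.06. For Dlx1, WT female cell 8 holds 35.7% of the WT female reads, and the female ratio without it is -0.57. On the male side Mut male cell 12 holds 36.3% of the Mut reads of Dlx1 and 21.1% of those of Dlx2, and without it the ratios are 1.03 and 0.99.

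Dlx5 stood higher in Mut sums of both sexes, as did 25.1% of all genes tested, while 0 of the 4 and 25% of all genes stood lower in both. It had 36.0 CPM in Mut females (35.0 to 37.1) and 16.5 CPM in WT females (15.4 to 17.6), a log2 ratio of 1.08. In males it had 60.3 CPM in Mut (58.9 to 61.7) and 47.4 CPM in WT (46.2 to 48.6), a log2 ratio of 0.34. In WT females only 2 cells carried Dlx5 and cell 1 alone holds 63.7% of the reads; without that cell the female ratio is 2.09. Without Mut male cell 12, the male ratio is 0.05.

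Dlx6 had 0.917 CPM in Mut females (0.755 to 1.10, 112 reads) and 13.6 CPM in WT females (12.6 to 14.6, 723 reads), a log2 ratio of -2.93 with 1 CPM added to each. In males it had 8.40 CPM in Mut (7.88 to 8.95) and 5.91 CPM in WT (5.50 to 6.34), a log2 ratio of 0.44. The WT female reads come almost wholly from 2 of 9 cells, cell 1 with 67.5% and cell 4 with 25.8%, and the female ratio without cell 1 is -1.78. Mut male cell 12 holds 62.2% of the Mut male reads, and without it the male ratio turns to -0.60. The sums alone do not tell fewer carrying cells from less transcript per carrying cell. By cell, 0 of 19 Mut female cells (highest 6.13 CPM) and 2 of 9 WT female cells carried Dlx6. In males the carrying cells were 3 of 15 in Mut and 3 of 19 in WT, and these shares were not tested.

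**Figure D4:**
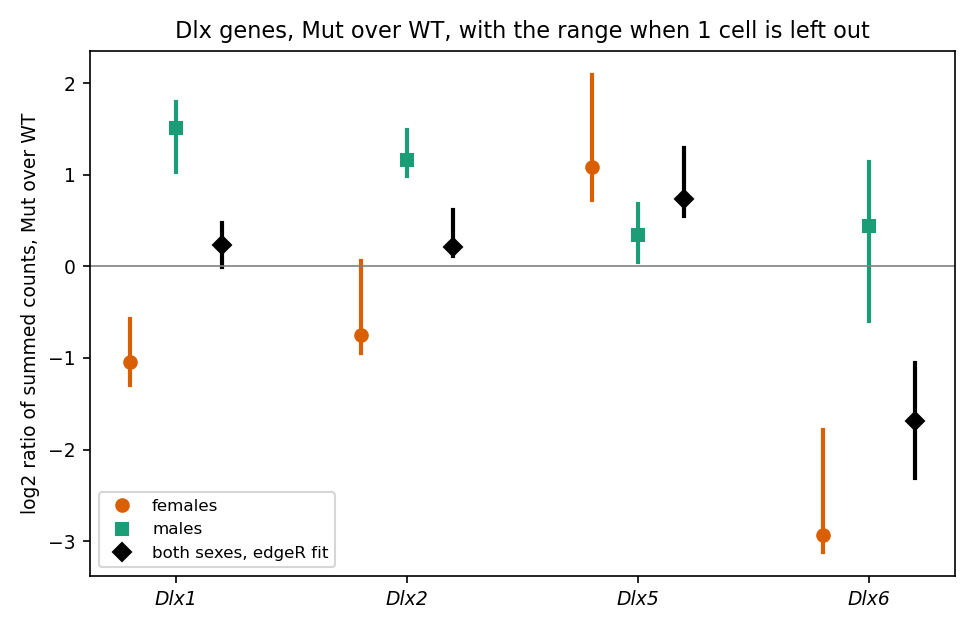
Log2 ratio of Mut over WT for each Dlx gene in females, in males and over both sexes by the edgeR fit, with vertical lines for the lowest and highest value when any 1 cell is left out. Dlx1 and Dlx2 lie below 0 in females and above it in males, and the lines of female Dlx2, male Dlx6 and Dlx1 over both sexes cross 0.

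Each of these patterns was also common among all genes. Opposite signs in the sexes were seen for Dlx1, Dlx2 and Dlx6, and for 49.2% of the 16435 genes tested. A female Mut sum at least 2-fold higher was found for 1 of 4 (Dlx5) and 23.1% of all genes, and one at least 2-fold lower for 2 of 4 (Dlx1 and Dlx6) and 18.2% of all genes. In males a Mut sum at least 2-fold higher was found for 2 of 4 (Dlx1 and Dlx2) and 16.7% of all genes, and one at least 2-fold lower for 0 of 4 and 17.4% of all genes. The shares of carrying cells gave the same sides for Dlx5 in both sexes and for Dlx6, while Dlx1 was carried by about the same share of Mut and WT females.

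Between the sexes, male over female with genotype as the other term, the edgeR log2 fold change was -0.72 (SE 0.77) for Dlx1 and -0.92 (SE 0.66) for Dlx2. It was 1.13 (SE 0.81) for Dlx5 and 0.99 (SE 2.34) for Dlx6. The unadjusted p-values by edgeR were 0.393, 0.229, 0.224 and 0.69 in this order, with an adjusted p of 1 for each. No gene passed for sex (0%), and 637 genes (3.88%) had an unadjusted p under 0.05.

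Genes that work with or beside the Dlx genes likewise did not pass the test. Of the 10 listed partners and upstream factors 7 were tested, and 1 was higher in Mut in both sexes, 0 lower in both and 6 opposite, with a median log2 fold change of 0.18. Sp9 had 74.1 CPM in Mut females and 120 CPM in WT females, and 115 CPM in Mut males and 49.8 CPM in WT males. Its sums thus lie on the same sides as those of Dlx1 and Dlx2. Zeb2, a zinc finger gene downstream of Dlx1 and Dlx2 in mouse MGE cells, had 150 CPM in Mut females and 196 CPM in WT females, and 169 CPM in Mut males and 100.3 CPM in WT males. Npas1, a transcription factor of some interneurons, had 49.8 CPM in Mut females and 0.921 CPM in WT females, and 32.8 CPM in Mut males and 87.1 CPM in WT males, with 9 of 62 cells carrying it. Gsx2, a progenitor gene upstream of Dlx1 and Dlx2, had no read in any of the 4 groups.

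The Mut over WT ratios of the GABA genes had opposite signs in the sexes for 6 of 6 tested, against 49.2% of all genes, and 0 of the 6 passed the test, with a median log2 fold change of 0.17 over both sexes, -0.24 in females and 0.16 in males. Gad1 had 633 CPM in Mut females and 820 CPM in WT females, and 556 CPM in Mut males and 464 CPM in WT males. Gad2, the other GABA-synthesising enzyme and a Dlx target in the mouse embryo, had 196 CPM in Mut females and 212 CPM in WT females, and 310 CPM in Mut males and 189 CPM in WT males.

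Of the MGE identity genes 9 were tested, with 2 higher in Mut in both sexes, 3 lower in both and 4 opposite, and a median log2 fold change of -0.01. Lhx6 had 542 CPM in Mut females and 651 CPM in WT females, and 295 CPM in Mut males and 399 CPM in WT males. Mef2c, a transcription factor of parvalbumin interneurons, had 937 CPM in Mut females and 1232 CPM in WT females, and 1374 CPM in Mut males and 680 CPM in WT males. Of 5 genes listed as repressed by Dlx1 and Dlx2 in the mouse embryo, 3 stood above WT in the Mut sums of both sexes, 1 below in both and 1 opposite, with a median of 0.52 and 0 past the adjusted threshold. Among all genes tested these shares were 25.1%, 25% and 49.2%. Pak3, a kinase of neurite growth in that list, had 296 CPM in Mut females and 182 CPM in WT females, and 271 CPM in Mut males and 215 CPM in WT males. Map2, a dendritic microtubule protein in the same list, had 284 CPM in Mut females and 242 CPM in WT females, and 387 CPM in Mut males and 338 CPM in WT males. Nrp1, a semaphorin receptor, lay on the other side, with 85.1 CPM in Mut females and 336 CPM in WT females, and 53.6 CPM in Mut males and 96.5 CPM in WT males. Its log2 fold change of -1.41 had an unadjusted p of 0.049 and an adjusted p of 1 by edgeR. Nrp2, the related receptor, had 36.8 CPM in Mut females and 8.55 CPM in WT females, and 30.5 CPM in Mut males and 22.3 CPM in WT males.

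Likeness between genes was measured by Spearman's rho of log2(CPM + 1) over the 62 cells, among the genes at 10 CPM or more in at least 15 cells. These values describe cells that share chemistry and depth differences, and weak ones are no finding. For Dlx1 the 3 genes with the highest rho were Gsto1 (0.50), Snx11 (0.48) and Hnrnpk (0.48), where the 99th percentile of 6660 genes was 0.34. Dlx2, the linked neighbour, ranked 25 of 6660 for Dlx1. For Dlx2 the top genes were Ptpmt1 (0.53), Mef2c (0.50) and Tsnax (0.50), against a 99th percentile of 0.39, and Dlx1 ranked 59.

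For Dlx5 the top genes were Plxna3 (0.58), Cttn (0.50) and Rbbp7 (0.48), against a 99th percentile of 0.35, and Dlx1 and Dlx2 ranked only 2670 and 2994. Plxna3 is a receptor for semaphorins, the repulsive guidance cues. Of the 21 cells that carried Plxna3, 14 carried Dlx5, against 24 of all 62 cells. For Dlx6 the top genes were Git1 (0.54), Enah (0.54) and Ocrl (0.52), against a 99th percentile of 0.41, and Dlx5, its linked neighbour, ranked 3000 of 6661. Of the 8 Dlx6 cells, 7 carried Git1, 7 Enah and 3 Ocrl, against 34, 39 and 17 of all 62 cells. Plxna3 and these genes were picked by their rho in the same cells, so such counts are no separate observation. The values of Dlx5 lay below 10 CPM in 38 of the 62 cells and those of Dlx6 in 54. Their rho values and ranks thus mostly order a low level that is not read as expression. Dlx6 has no rank in the list of Dlx5, since fewer than 15 cells carried it.

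The 5 WT cells marked as contaminated, 1 female and 4 male, also held Dlx transcripts. Dlx1 had 24.3 CPM in the female cell and 118, 32.1, 47.4 and 91.7 CPM in the male cells, all above the limit. Dlx2 had 2.71 CPM in the female cell and 263, 60.3, 69.9 and 68.5 CPM in the male cells. Dlx5 had 4.19 CPM in the female cell and 199, 11.9, 1.23 and 0 CPM in the male cells. The marked cells lay within the range of the 28 unmarked WT cells for each of these genes except Dlx5, where the lowest marked cell had no read and the lowest unmarked one had 0.167 CPM. Dlx6 was carried by 0 of the 5, between 0 and 7.72 CPM.

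The 9 cells that the authors left out (4 Mut female, 4 Mut male and 1 WT male) were mostly shallow, with a median of 2102311 counts. Dlx1 reached 10 CPM in 3 of them, with 1.52 to 580 CPM and a median of 6.42 CPM. Dlx2 reached it in 2 (0.640 to 318 CPM), Dlx5 in 2 (0.380 to 181 CPM) and Dlx6 in 1 (0 to 24.0 CPM). The criterion of the authors' filter is not given in the sources used here, so whether these cells differ in kind from those kept was not tested.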

How the data were processed

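Single CA1 interneurons were sampled by Patch-seq with Nextera XT libraries, and reads were quantified with kallisto against GRCm38, per the submitters' processing notes; no version is stated. The deposited count tables hold the authors' expected counts per gene symbol, and the deposited normalized table holds TPM made by the authors. Whether counting used strand, how the 9 cells were filtered out and what the contamination mark rests on are not given in the sources used here. Columns of other samples (44 after and 52 before the filter) were not used. Genes without a value under their symbol, Dlx6os1 among them, were not analysed here. A few genes that the naming rule takes are not reported here.

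The 4 Dlx genes, the gene lists, the 10 CPM limit for carrying a transcript and the tests were chosen with earlier results of these data known. CPM per cell is the expected count over the cell's total. Shares have exact binomial and sums exact Poisson intervals (95%), which cover counting error only; a count of 0 allows up to 3 counts. The cells of a genotype and sex were summed (117701978 counts for Mut female, 112199211 for Mut male, 61543250 for WT female and 120682303 for WT male), rounded to whole numbers, filtered with filterByExpr (minimum count 10), scaled with TMM and tested in edgeR 4.0.16 (limma 3.58.1, R 4.3.3) by glmQLFit and glmQLFTest with sex and genotype as terms, on 16435 genes. p-values measure the spread between these 4 sums, which may be technical. Ratios within a sex use TMM-scaled CPM with a pseudocount of 1 CPM and no test. DESeq2 1.42.0 was an alternative. No 2 kept cells held identical counts. Named are the 4 Dlx genes, the 4 listed genes of a list with the highest mean CPM where their values bear on the Dlx genes, and the 3 genes most like each Dlx gene, passing over Gm and Rik names.

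The homeobox windows come from coding sequences of GENCODE M21 transcripts. They were found by a search over in-frame windows for the highest summed identity to Dlx2, and annotated homeobox bounds were not used. Runs of 31 bases were compared with every annotated transcript on both strands.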

Additional observations from a re-analysis of the deposited data

Results flagged for a closer look

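Dlx2 in WT female cell 7 stood apart from the other 8 WT female cells, at 795 CPM against 312 CPM in the next cell. This cell had 10525 CPM of astrocyte and radial glia markers and 2.67 CPM of Lhx6, and their part in its Dlx2 level was not tested. Among the 4 WT male cells marked as contaminated, cell 1 stood apart in Dlx2, at 263 CPM against 69.9 CPM in the next, and in Dlx5, at 199 CPM against 11.9 CPM in the next. The test for a cell standing apart flags about 1 in 20 groups by chance only where values are normally distributed. The CPM of most Dlx genes here fall into an upper and a lower cloud, so its rate by chance is not known here. In all, 8 sets of cells were tested in this way, from the WT female and the marked WT male cells. The larger groups, Mut female, Mut male and unmarked WT male, were not tested in this way.

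The Mut over WT ratio had opposite signs in the sexes for 3 genes. The male minus the female log2 ratio was 2.55 for Dlx1, 1.91 for Dlx2 and 3.37 for Dlx6. These differences were not tested, since each group is 1 sum of cells, and 49.2% of all genes tested had opposite signs in the sexes.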

How the results depend on the processing

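No paired analysis was possible because the labels carry no replicate numbers and name no animal. Without a term for sex, the log2 fold change of Mut over WT turned to -0.0588 for Dlx1 and -0.0794 for Dlx2. With DESeq2, 367 genes passed as higher in Mut and 299 as lower, where edgeR called 0 in each direction, and none was a Dlx gene; the cause was not tested. At a limit of 1 CPM in place of 10 CPM, Dlx6 was carried by 25 cells, Dlx1 and Dlx2 together by 51, and Dlx5 and Dlx6 together by 15. At 50 CPM, Dlx6 was carried by 2 cells, and Dlx5 and Dlx6 together by 2.

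When 1 cell was left out at a time, the log2 fold change over both sexes lay between -0.0064 (without Mut male cell 12) and 0.47 for Dlx1, 0.11 and 0.62 for Dlx2, 0.55 and 1.29 for Dlx5, and -2.31 and -1.05 for Dlx6, with 0 genes called in each fit. The female ratio lay between -1.29 and -0.57 for Dlx1, -0.95 and 0.064 (without WT female cell 7) for Dlx2, 0.72 and 2.09 for Dlx5, and -3.12 and -1.78 for Dlx6. The male ratio lay between 1.03 and 1.80 for Dlx1, 0.99 and 1.48 for Dlx2, 0.05 and 0.68 for Dlx5, and -0.60 (without Mut male cell 12) and 1.14 for Dlx6. Median-of-ratios scaling, library totals, no filter on low counts, adding the marked or the left-out cells, and means of cell CPM kept the direction of each of the 4 fold changes. Leaving out the 9 cells highest in glial markers, a choice made after seeing the data, changed no count of carrying cells by over 1.5 times.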
